A study of Homo sapiens with 6 samples.

Results

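The genes described here are precursors and enzymes of the cornified envelope in MCF10A cells grown with and without growth factors. The list holds 8 genes chosen by name, IVL, SPRR1A, SPRR1B, TGM1, PPL, EVPL, SCEL and CSTA, out of a table of 19198 genes. Of these, 6 were analysed, and SPRR1A and SPRR1B are not analysed here. MCF10A is an established, non-tumorigenic line of human mammary epithelial cells from a breast with fibrocystic disease, and every sample is this line. The control cells were grown in DMEM:F12 with 5% horse serum, 10 µg/ml insulin, 20 ng/ml EGF, 100 ng/ml cholera toxin and 0.5 µg/ml hydrocortisone. The growth factor-depleted cells received the same medium and serum without these 4 additions, so that the removal of any one of them cannot be told apart from that of the others. RNA-Seq was done on 3 control samples and 3 depleted samples, each with a replicate number from 1 to 3. The study's methods describe depletion over days until the cells changed shape, without the day on which these samples were taken. The labels do not say whether the samples came from separate cultures, and the design text of the deposit speaks of 2 replicates, so the p-values below measure only the spread between these samples.

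The cornified envelope is a tough layer of cross-linked protein that replaces the plasma membrane of keratinocytes at the end of their differentiation, and it is best known from the skin and other stratified epithelia. Envoplakin and periplakin are laid down first under the membrane, involucrin and other precursors such as sciellin and the small proline-rich proteins are joined to them, and transglutaminases tie the proteins together through glutamine and lysine residues. Cystatin A, an inhibitor of cysteine proteases, is itself built into the envelope. The mammary epithelium does not form a cornified layer, although basal mammary cells and basal keratinocytes share keratins and transcription factors.

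The deposited values were normalized counts, the reads on each gene divided by a size factor of the sample, and they were not scaled to the length of the gene. Each value was a whole number of reads once rescaled, and the reads on genes came to between 7472418 and 28672630 per sample. At these depths 3 reads, taken as the floor, correspond to 1.76 to 6.71 normalized counts, which covers counting error only. A gene was called changed when limma on log2(normalized count + 1) gave a Benjamini-Hochberg adjusted p under 0.05 over the 16988 genes whose mean reached 10 normalized counts, together with a change of at least 2-fold. By this rule 335 genes, or 1.97% of those tested, were lower in depleted cells and 741, or 4.36%, were higher. Some samples stood apart from the rest of their group. Control replicate 3 had 2.78% of its reads on mitochondrial genes, against 0.576% to 1.05% in the other samples. Depleted replicate 1 had 562 normalized counts of KRT5, a keratin of basal cells, against 10908 to 38503 in the others, but also the highest value of KRT14, another basal keratin, at 980.3 against 12.8 to 306.3. The fold changes printed below for the listed genes, for called cornification genes and for ratios were also read with either sample left out. Where leaving out either sample changed a call or moved such a fold change by over 1.5 times, the value without it is given. For the other genes named below, such as KRT10 and DST, values without these samples are not given. How far their results depend on either sample was not tested. The labels name the cells luminal ductal, yet the keratins KRT8 and KRT18 of luminal cells and the basal KRT5 were all present in every sample. Of the 9 fibroblast markers tested, limma called 8 higher in depleted cells, against 4.36% of all genes, and 0 lower, against 1.97%. All 9 had a positive log2 fold change, with groups that did not overlap. The summed level of the list went from between 3952 and 11452 to between 128997 and 194613 normalized counts. The fibroblast marker THY1 had at most 6.7 normalized counts in any sample. The part of these shifts in the results below was not tested.

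For 4 of the 8 genes, IVL, SPRR1A, SPRR1B and SCEL, the RefSeq promoter table (build GRCh38.p14) held an entry, and for CSTA, EVPL, PPL and TGM1 it held none. For 2 of these genes, IVL and SCEL, a window of 140 bases is shown, because only these 2 of the 4 were analysed. It runs from 180 to 41 bases upstream of the start that RefSeq gives. Capitals mark the letters TGAGTCA of the AP-1 motif and the letters TGTGGT of the RUNX motif, or their reverse complements TGACTCA and ACCACA. AP-1 is a family of transcription factors that acts downstream of growth factor signalling, and RUNX factors are the family to which RUNX1 belongs. The first window lies at chr1:152908366-152908505 and the second at chr13:77535526-77535665, both on the plus strand. Gencode v44, used for the gene coordinates below, starts IVL at the same base and SCEL at 77535674, from which the SCEL window ends 9 bases upstream.
IVL: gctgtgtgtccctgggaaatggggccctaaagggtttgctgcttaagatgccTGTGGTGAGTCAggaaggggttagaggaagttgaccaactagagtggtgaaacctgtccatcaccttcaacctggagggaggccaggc
SCEL: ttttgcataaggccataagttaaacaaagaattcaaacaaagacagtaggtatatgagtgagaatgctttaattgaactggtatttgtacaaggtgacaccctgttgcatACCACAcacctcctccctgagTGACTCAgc
Over the 250 bases upstream of the RefSeq start and on both strands, the AP-1 letters were found in all 4 promoters. They began 123 bases upstream in IVL, 108 in SPRR1A, 141 in SPRR1B and 49 in SCEL. The same letters were in 4.2% of the 35116 promoters of the table. The RUNX letters TGTGGT or TGCGGT were found in IVL, where they share 1 base with the AP-1 letters, and in SCEL, and in 16.3% of all promoters. The letters AACCGGTT of the GRHL motif, TGTTCT of the glucocorticoid receptor half-site and TGACGTCA of the CRE motif, held by 0.117%, 12.4% and 1.65% of all promoters, were not in these 4 windows. Matches of letters are a description and do not show that a factor binds there.

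CSTA and EVPL were lower in growth factor-depleted cells, while PPL, the partner of EVPL, was not called changed. TGM1 was lower in every depleted sample but missed the threshold of the test. SCEL and IVL varied more between samples of a condition than between conditions. In all, 2 of the 6 genes were called lower, against 1.97% of all genes, and 0 were called higher, against 4.36%. At an unadjusted p under 0.05 in limma 0 of the 6 were higher, against 11.4% of all genes. By edgeR 0 were called higher, against 4.02%, and by DESeq2 0, against 7.6%. With only 6 genes, a count of 0 lies near each of these shares. In 3 of the 6, CSTA, EVPL and TGM1, every depleted sample lay below every control sample, which held for 12.1% of all genes tested, and in 0 of the 6 every depleted sample lay above, which held for 13.5%. The median log2 fold change was -1.58 over the 6 genes and -0.03 over all genes tested. In bulk samples such as these, fewer cells that express a gene and less RNA of that gene per cell cannot be told apart.

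**Figure D1:**
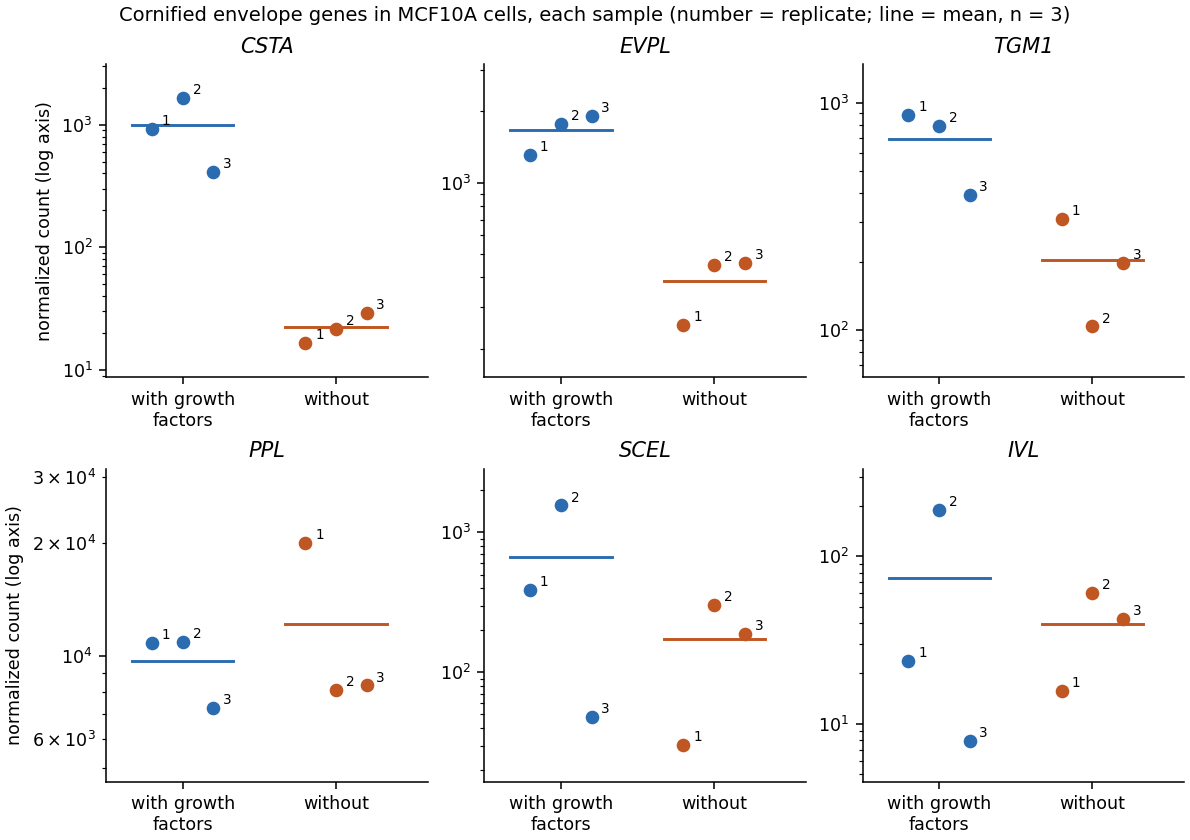
Normalized counts on a log axis of the 6 cornified envelope genes in each of the 6 samples, controls in blue and growth factor-depleted cells in orange, with the replicate number beside each point and a line at the mean of the 3 samples. The groups are apart for CSTA, EVPL and TGM1 and overlap for PPL, SCEL and IVL.

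The protease inhibitor of the list had the largest change. CSTA (ENSG00000121552.3), which encodes cystatin A, is located on chromosome 3 of hg38 (122325248 to 122341969, plus strand). Its values were 916.1, 1649.2 and 409.2 normalized counts for control replicates 1 to 3 and 16.5, 21.6 and 29.1 for depleted replicates 1 to 3. Every depleted sample was more than 10 times below every control sample, and the depleted values rest on 18, 33 and 13 reads. The mean went from 992 ± 623 to 22.4 ± 6.33 normalized counts (SD, n = 3 in each condition), so that 2.26% of the control mean was left. The log2 fold change was -5.22 (standard error, SE, of 0.54, limma adjusted p = 0.00157). The count models gave CSTA adjusted p-values of 0.00293 (edgeR) and 9.63e-20 (DESeq2).

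CSTB, the gene of the related inhibitor cystatin B, was compared with CSTA within each sample. It was chosen after its values were seen and is not an independent control. It had 901.1, 1628.1 and 522.4 normalized counts in the controls and 787.1, 731.1 and 1059.8 in the depleted cells, and its log2 fold change of -0.11 did not pass (limma adjusted p = 0.927). The cystatin genes CST3 and CST6 had log2 fold changes of 1.07 and 2.64 and were not called (limma adjusted p = 0.122 and 0.0849). Per length of transcript, the ratio of CSTA to CSTB was 0.804, 0.801 and 0.619 in control replicates 1 to 3 and 0.0165, 0.0234 and 0.0217 in depleted replicates 1 to 3. The ratio was therefore even among the controls, although the counts of CSTA alone differed 4.03-fold between them. The transcripts of CSTA and CSTB are short, at 744 and 588 bases, and the control samples differed in how levels related to length. The part of length in the spread of CSTA among the controls was not tested. The deviations from each gene's mean level had a Spearman's rho with length of -0.359 in control replicate 2 and 0.342 in control replicate 3, across 13035 genes, which are not independent replicates. With length and GC content corrected for, the log2 fold change of CSTA was -5.06 (limma adjusted p = 8.12e-04). The geometric mean of the ratio was 36.2-fold lower in depleted cells, with groups that did not overlap (exact two-sided permutation test, p = 0.1, the smallest that 3 samples against 3 allow). CSTA alone separated the groups by more than the range of CSTB over all samples. The ratio was thus bound to separate them, and its p-value adds no support.

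The plakins form the scaffold on which the envelope is built. EVPL (ENSG00000167880.6), the gene of envoplakin, is located on chromosome 17 (76004502 to 76027306, minus strand). Its control replicates 1 to 3 had 1310.9, 1777.5 and 1906.5 normalized counts and its depleted replicates 1 to 3 had 251.7, 449.1 and 458.4. The groups lay apart, and within each of them the highest value was at most 1.82 times the lowest. The mean fell from 1665 ± 313 to 386 ± 117 normalized counts (SD, n = 3 in each condition), to 23.2% of the control mean. The log2 fold change was -2.14 (SE 0.33, limma adjusted p = 0.00778), with adjusted p-values of 0.0119 by edgeR and 2.25e-06 by DESeq2. Without depleted replicate 1, the lowest of the 6, the log2 fold change was -1.85 (limma adjusted p = 0.0181).

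PPL (ENSG00000118898.14) encodes periplakin, which pairs with envoplakin through its rod domain, and is located on chromosome 16 (4882507 to 4960741, minus strand). Its values were 10786.7, 10903.8 and 7257.0 normalized counts in the controls and 20013.7, 8104.0 and 8319.9 in the depleted cells. Only depleted replicate 1 lay above the controls, and the other depleted samples were within their range. The log2 fold change was 0.22 (SE 0.44, limma adjusted p = 0.843), with a 95% interval from -0.79 to 1.23, and it was -0.21 without depleted replicate 1. The partners were then compared within each sample. Per length of transcript, the ratio of EVPL to PPL was 0.117, 0.158 and 0.254 in control replicates 1 to 3 and 0.0122, 0.0536 and 0.0532 in depleted replicates 1 to 3. The lowest control ratio was above the highest depleted ratio, with means of 0.176 ± 0.0701 and 0.0397 ± 0.0238 (SD, n = 3 in each condition). The geometric means of the ratio differed 5.14-fold (exact two-sided permutation test, p = 0.1, the smallest possible), and 3.14-fold without depleted replicate 1, the lowest ratio.

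The enzyme of the list was transglutaminase 1, the membrane-bound cross-linker of keratinocytes. TGM1 (ENSG00000092295.10) is located on chromosome 14 (24249114 to 24264432, minus strand). Its values were 884.8, 790.9 and 394.5 normalized counts in the controls and 308.5, 103.6 and 196.8 in the depleted cells. The groups did not overlap, and the gap between the lowest control and the highest depleted sample was narrow. The means were 690 ± 260 and 203 ± 103 normalized counts (SD, n = 3 in each condition), and the log2 fold change was -1.81 (SE 0.48, limma adjusted p = 0.0665). TGM1 was thus not called by limma, nor by edgeR (adjusted p = 0.0753), with which 1.7% of all genes were called lower. DESeq2, which called 4.87% of all genes lower, gave TGM1 an adjusted p of 0.0077. The call depended on which sample was left out. Without control replicate 3 the limma adjusted p was 0.0241 at a log2 fold change of -2.17, and without depleted replicate 1 it was 0.0471 at a log2 fold change of -2.18. Each is the sample of its group nearest the other group, so leaving it out widens the gap. Without control replicate 3, calls lower over all genes also rose, from 335 to 1102. Leaving out any other sample gave TGM1 limma adjusted p-values between 0.178 and 0.216. Correcting the values for the length and GC content of the transcripts gave a limma adjusted p of 0.0466.

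**Figure D2:**
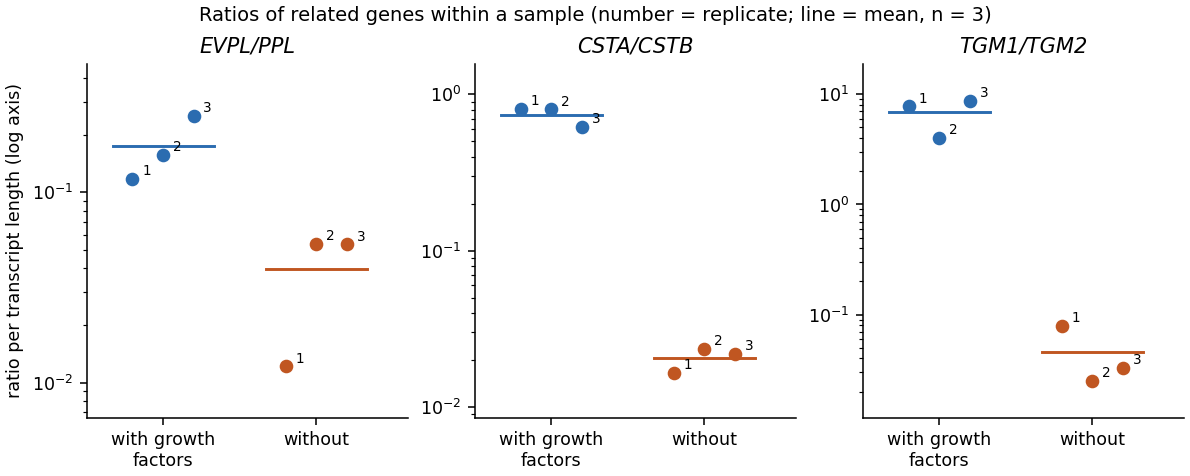
Ratios of related genes within each sample on a log axis, each gene's normalized count divided by its transcript length, for EVPL over PPL, CSTA over CSTB and TGM1 over TGM2, with controls in blue, depleted cells in orange, replicate numbers beside the points and a line at the mean of 3 samples. In each panel all control samples lie above all depleted samples, and the largest gap is that of TGM1 over TGM2.

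The remaining precursors, sciellin and involucrin, were the most variable of the list. SCEL (ENSG00000136155.15), which is located on chromosome 13 (77535674 to 77645263, plus strand), had 386.0, 1558.4 and 48.2 normalized counts across control replicates 1 to 3 and 30.2, 304.9 and 187.8 across depleted replicates 1 to 3. Control replicate 2 was high and control replicate 3 and depleted replicate 1 were low, so that the groups overlapped. The log2 fold change of -1.35 (SE 1.25, limma adjusted p = 0.625) had a 95% interval from -4.20 to 1.51. It was -0.18 without control replicate 2, -2.67 without control replicate 3 and -0.37 without depleted replicate 1, none of which passed the test.

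IVL (ENSG00000163207.6), the gene of involucrin, is located on chromosome 1 (152908546 to 152911886, plus strand). Its values were 23.8, 189.8 and 7.9 normalized counts in the controls and 15.6, 60.3 and 42.5 in the depleted cells, and the value of control replicate 3 rests on 8 reads. The groups overlapped, with control replicate 2 the highest and control replicate 3 the lowest of all samples. The log2 fold change was 0.02 (SE 1.07, limma adjusted p = 0.995), with a 95% interval from -2.43 to 2.48, and leaving out 1 sample moved it between -0.96, without control replicate 3, and 1.25, without control replicate 2. Because the interval reaches beyond a 4-fold change in both directions, no statement on a change of IVL can be made from these samples.

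SCEL and IVL were high in the same sample. In both genes control replicate 2 was the highest sample and depleted replicate 2 exceeded the other depleted samples, and Pearson's r of their log2 values was 0.88 over the 6 samples, which share library and depth for both genes. Among the controls the highest value of SCEL was 32.3 times the lowest, and that of IVL was 24.1 times the lowest. The median of this ratio was 2.21 over the 16562 genes tested that had reads in every sample, and 0.869% of them had a wider ratio than SCEL and 1.42% a wider ratio than IVL. EVPL, at 1.45, and PPL, at 1.50, varied less among the controls than the median gene.

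Levels can be compared between genes only per length of transcript, for which the canonical transcript of Gencode v44 was used. Per kilobase, PPL had 1161 to 1744 normalized counts in the controls, CSTA 550 to 2217, EVPL 203 to 295, TGM1 144 to 322, SCEL 15.1 to 488 and IVL 3.66 to 88.2. In control cells PPL and CSTA were thus the most abundant of the 6 and overlapped each other, EVPL, TGM1 and SCEL overlapped below them, and IVL was the lowest in each sample. In depleted cells PPL was at 1296 to 3202 normalized counts per kilobase, and the next highest value of the list was 112, for TGM1. Of the summed level per kilobase, PPL made up 34.2% to 53.5% in the controls and 83.3% to 94.4% in the depleted cells. The share of CSTA went from between 25.4% and 43.5% to between 0.653% and 2.46%.

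**Figure D3:**
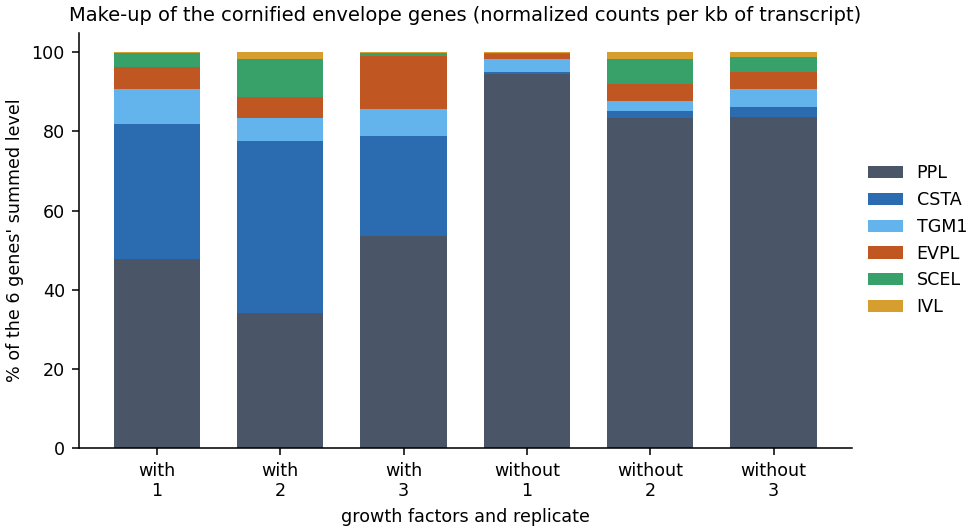
Share of each cornified envelope gene, in percent of the 6 genes' summed normalized counts per kilobase of transcript, in the 3 samples with and the 3 samples without growth factors. PPL and CSTA together fill most of each control bar, and PPL alone takes at least 83.3% of each depleted bar.

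Other genes of cornification were followed in 7 lists with 98 genes, of which 55 were in the table and 52 were tested. Of these 52, 3 were called higher, against 4.36% of all genes, and 5 lower, against 1.97%. The median log2 fold change was -0.16, against -0.03 over all genes. Changes in both directions occurred among the envelope precursors and the transglutaminases. In the other 5 lists, with 44 genes tested, limma called 0 higher and 3 lower. At an unadjusted p under 0.05, 8 of the 44 were higher, against 11.4% of all genes, and 7 lower, against 8.62%. By edgeR 0 were higher, against 4.02%, and 3 lower, against 1.7%, and by DESeq2 4 were higher, against 7.6%, and 7 lower, against 4.87%.

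Of the 35 other envelope precursors listed, 5 were in the table and 4 were tested. Limma called 1 of these 4 higher, against 4.36% of all genes, and 1 lower, against 1.97%. FLG, the gene of filaggrin, which bundles keratin filaments in the upper epidermis, had 1.3, 0 and 0 normalized counts in the controls and 81.5, 36.1 and 62.6 in the depleted cells. All controls were at or under the floor, and FLG was at least 21.3-fold higher in depleted cells (limma adjusted p = 0.00346). A gene with such controls reaches the mean of 10 normalized counts only when its depleted values are high. The adjusted p of FLG is therefore no support for its direction. PI3, the gene of elafin, a protease inhibitor that is also a transglutaminase substrate, went the other way. It had 22.6, 90.8 and 18.7 normalized counts in the controls and 0.9, 1.3 and 2.2 in the depleted cells, and was at least 11.6-fold lower (limma adjusted p = 0.0232). PI3 in turn was tested only because of its control values. The call of PI3 was lost when any one sample except control replicate 3 was left out, with limma adjusted p-values between 0.0557 and 0.0915. It was also lost with a pseudocount of 10 (limma adjusted p = 0.0564) and with the length and GC correction together with the replicate block (limma adjusted p = 0.0676). CNFN and ANXA1 were not called.

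Of the 7 other transglutaminases listed, 4 were in the table and tested. Limma called 2 of these higher, TGM2 and F13A1, against 4.36% of all genes, and 1 lower, TGM5, against 1.97%. TGM4 was not called. TGM2 encodes tissue transglutaminase, a cross-linker of the extracellular matrix among other roles, and had 206.8, 354.4 and 81.6 normalized counts in the controls and 7038.6, 7552.6 and 10824.2 in the depleted cells. Its log2 fold change was 5.51 (SE 0.50, limma adjusted p = 9.0e-04). F13A1, the gene of the catalytic subunit of coagulation factor XIII, had 0, 0 and 4.9 normalized counts in the controls and 241.6, 504.9 and 816.1 in the depleted cells (limma adjusted p = 0.00157). Like FLG, it was tested only because of its depleted values, so its adjusted p is no support for its direction. TGM5, an epidermal cross-linker, had 25.1, 45.1 and 38.4 normalized counts in the controls and 2.7, 3.3 and 2.2 in the depleted cells (limma adjusted p = 0.0149). TGM5 was tested only because of its control values. Its depleted values rest on 5 reads or fewer, and its call was lost without control replicate 2, depleted replicate 2 or depleted replicate 3, and with the length and GC correction together with the replicate block (limma adjusted p = 0.0763).

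The balance between the keratinocyte and the tissue enzyme was read within each sample. Per length of transcript, the ratio of TGM1 to TGM2 was 7.75, 4.04 and 8.75 in control replicates 1 to 3 and 0.0794, 0.0248 and 0.0329 in depleted replicates 1 to 3. TGM1 was above TGM2 in every control sample and below it in every depleted sample, and the mean ratio went from 6.85 ± 2.48 to 0.0457 ± 0.0294 (SD, n = 3 in each condition, exact two-sided permutation test, p = 0.1, the smallest possible).

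**Figure D4:**
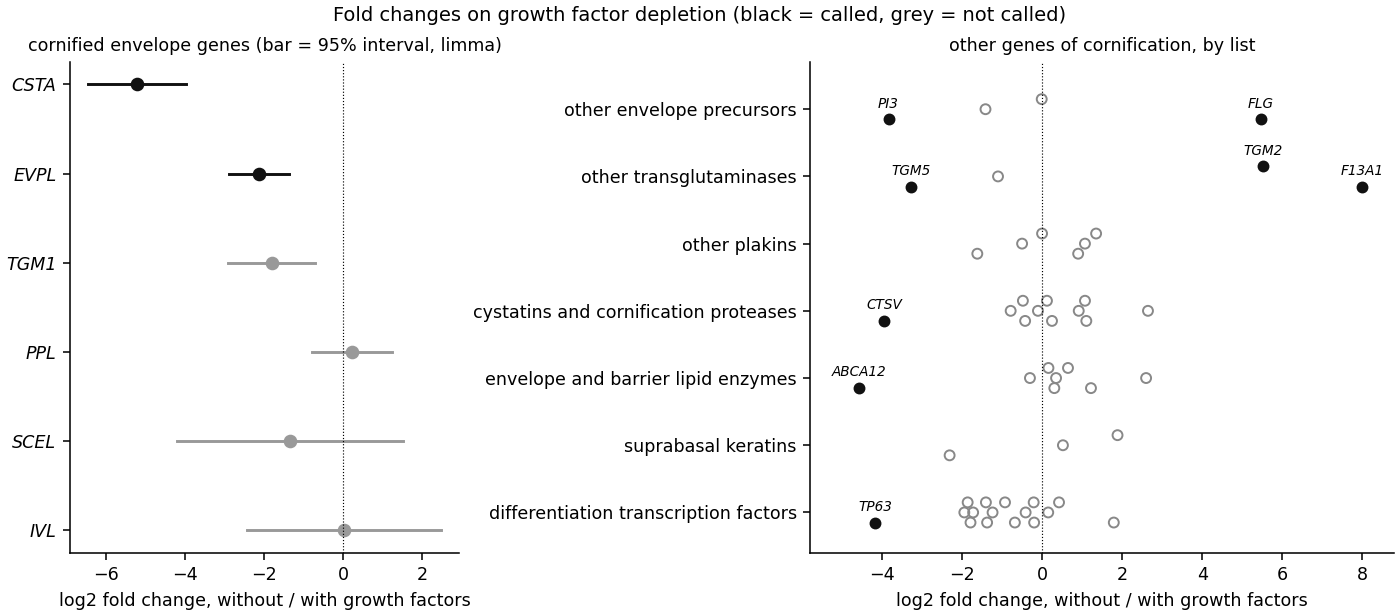
Log2 fold changes, depleted over control cells, of the 6 cornified envelope genes with 95% intervals from limma (left) and of the 52 other cornification genes tested, grouped by list (right), with black for genes called and grey for genes not called. Only CSTA and EVPL are called among the 6, and among the called genes of the other lists ABCA12 is the lowest and F13A1, whose place depends on the pseudocount because its controls were near 0, the highest.

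None of the 6 other plakins was called by limma or by edgeR. At an unadjusted p under 0.05 in limma, 1 was higher, against 11.4% of all genes, and 1 lower, against 8.62%. DESeq2 called 0 higher, against 7.6% of all genes, and 1 lower, against 4.87%. The most abundant, PLEC, which encodes plectin, a linker of filaments, had 38814.2, 51803.6 and 62745.5 normalized counts in the controls and 58697.4, 33181.8 and 22598.6 in the depleted cells (limma adjusted p = 0.673). DST, the gene of dystonin, which links keratin to hemidesmosomes, ranged from 12701.8 to 65447.8 in the controls and from 14073.0 to 41541.2 in the depleted cells (limma adjusted p = 0.998). DSP, the gene of desmoplakin of the desmosomes, had 31200.7, 14059.2 and 26545.1 normalized counts in the controls and 4347.6, 11249.2 and 8089.6 in the depleted cells. Its groups did not overlap, and its log2 fold change of -1.63 did not pass (limma adjusted p = 0.0933), while DESeq2 gave an adjusted p of 0.0103. The difference between EVPL and these other plakins was not tested.

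Of 11 cystatins and proteases of cornification tested, limma called 1 lower, CTSV, against 1.97% of all genes, and 0 higher, against 4.36%. At an unadjusted p under 0.05 in limma, 4 were higher, against 11.4% of all genes, and 1 lower, against 8.62%. DESeq2 called 2 higher, against 7.6% of all genes, and 1 lower, against 4.87%. CTSV encodes cathepsin V, a cysteine protease of keratinocytes that cystatins inhibit. It had 2121.7, 3908.2 and 369.9 normalized counts in the controls and 43.9, 158.7 and 111.8 in the depleted cells, with a log2 fold change of -3.96 (SE 0.84, limma adjusted p = 0.0281). The inhibitor CSTA and this protease were therefore both lower in depleted cells. CST6, the gene of another cystatin, went the other way, with 878.5, 382.6 and 123.0 normalized counts in the controls and 875.9, 2924.9 and 3964.3 in the depleted cells. Its groups overlapped, and its log2 fold change of 2.64 did not pass (limma adjusted p = 0.0849), while DESeq2 gave an adjusted p of 0.00469. The call of CTSV was lost when any one sample except control replicate 3 was left out, with limma adjusted p-values between 0.061 and 0.113, and in limma without the trend (adjusted p = 0.057). Without control replicate 3, the lowest of the controls, the log2 fold change was -4.95 (limma adjusted p = 0.00405). The related protease gene CTSL had a log2 fold change of -0.49 and was not called (limma adjusted p = 0.61), and the ratio of CTSV to CTSL per length of transcript lay between 0.228 and 0.943 in the controls and between 0.0172 and 0.0821 in the depleted cells. The geometric means of this ratio differed 11.3-fold, or 7.44-fold without depleted replicate 1.

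Among 8 lipid enzymes and transporters of the envelope and skin barrier, limma called 1 lower, ABCA12, against 1.97% of all genes, and 0 higher, against 4.36%. ABCA12, which moves glucosylceramides into lamellar granules of keratinocytes, had 9584.8, 3354.6 and 5461.7 normalized counts in the controls and 130.0, 367.8 and 261.6 in the depleted cells. Every depleted sample lay far below every control sample, and the log2 fold change was -4.59 (SE 0.49, limma adjusted p = 0.0017). None of the 3 suprabasal keratins tested was called by limma or by edgeR. At an unadjusted p under 0.05 in limma, 1 was higher, against 11.4% of all genes, and 1 lower, against 8.62%. DESeq2 called 1 higher, against 7.6% of all genes, and 1 lower, against 4.87%. KRT80 had 731.9, 1891.7 and 863.7 normalized counts in the controls and 2045.7, 4355.6 and 6716.8 in the depleted cells (limma adjusted p = 0.07), and KRT10, a keratin of differentiating epidermis, had 2734.6, 4218.1 and 296.1 in the controls and 259.0, 256.4 and 411.4 in the depleted cells (limma adjusted p = 0.175).

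Of 16 transcription factors of keratinocyte differentiation tested, limma called 1 lower, TP63, against 1.97% of all genes, and 0 higher, against 4.36%. TP63 encodes p63, a factor of basal cells of stratified and glandular epithelia, and had 270.7, 359.1 and 1615.3 normalized counts in the controls and 8.2, 64.9 and 42.5 in the depleted cells. Its log2 fold change was -4.18 (SE 0.88, limma adjusted p = 0.027), and the call was lost without control replicate 1, control replicate 2 or depleted replicate 3, and in limma without the trend (adjusted p = 0.051). For TP63 this change was -3.39 on the log2 scale without control replicate 3, the highest sample, and -3.34 without depleted replicate 1, the lowest. Of the 16 factors, 13 had a negative log2 fold change, against 51.9% of all genes, and in 5 every depleted sample lay below every control sample, against 12.1% of all genes.

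Genes with the most similar pattern were looked for by Pearson's correlation of log2 values over the 6 samples, among 11683 genes whose mean reached 100 normalized counts. For CSTA these were DUS4L (r = 0.999) and RINT1 (r = 0.997), both with far smaller changes, since DUS4L went from between 295.1 and 418.9 to between 147.4 and 169.9 normalized counts. For EVPL they were GSDMC (r = 0.997) and TNNI2 (r = 0.991), and for TGM1 they were PGM1 (r = 0.995) and PIGF (r = 0.987). PPL was most like SPAG16 (r = 0.979) and NADK2 (r = 0.967), which shared its high value in depleted replicate 1. SCEL was most like EIF3J (r = 0.989) and RCC2P6 (r = 0.984), and IVL was most like TFPT (r = 0.975) and RAP1GAP2 (r = 0.973). With so many genes compared over 6 samples, values of this size are a description and carry no test.

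The calls on the list were read under 18 other fits. CSTA was called lower in 18 of 18, with log2 fold changes between -5.75 and -4.75, and EVPL in 18 of 18, with log2 fold changes between -2.45 and -1.85. TGM1 had a negative log2 fold change in each fit, between -2.18 and -1.40, and was called in 5 of 18. SCEL, PPL and IVL were called in 0 of 18.

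**Figure D5:**
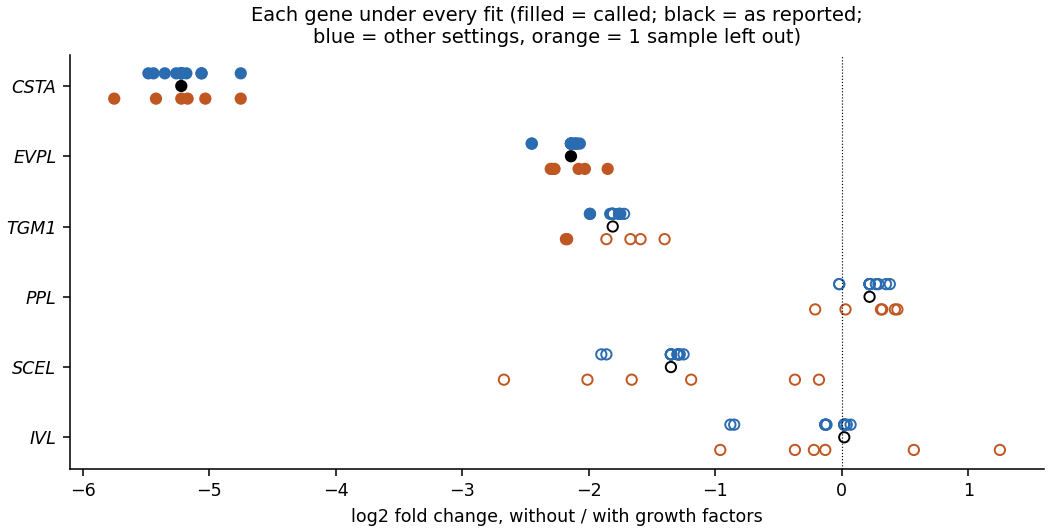
Log2 fold change, depleted over control cells, of the 6 cornified envelope genes in the fit reported above (black), with other settings (blue) and with 1 sample left out (orange), filled where the gene was called. CSTA and EVPL are filled throughout, TGM1 is filled in 5 of the other fits, and PPL and IVL lie on both sides of 0.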

How the data were processed

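RNA-Seq of MCF10A cells was available for 3 control and 3 growth factor-depleted samples, grouped and numbered by the sample titles. The authors depleted ribosomal RNA with a stranded total RNA kit, sequenced 100 bases from one end of each fragment, aligned the reads to hg38 (TopHat2) and obtained counts per gene of Gencode v22 (HTSeq 0.6). The deposited signal per gene is the count of reads divided by a DESeq2 1.8.1 size factor, per the labels and the study's methods, and 100% of the values were whole reads within 0.001. Each of the 19198 genes listed had at least 3 reads in at least 3 samples. Names, coordinates and transcript lengths came from Gencode v44, which names 18913 of the identifiers. The test was limma 3.58.1 (lmFit, eBayes with a trend, R 4.3.3), checked on simulated data. Alternatives were pseudocounts of 0.5 and 10, no filter, a mean of at least 50, other scalings, no trend, a replicate block, correcting for the length and GC content of transcripts, edgeR 4.0.16 and DESeq2 1.42.0 on the recovered reads, an adjusted p under 0.1, and leaving out each sample. The same alternatives for the called genes outside the list of 8 were chosen after seeing the data. The genes and lists were chosen with earlier results of these data known. Named genes are the list itself, up to 4 called genes of each wider list or, where none was called, the 2 with the highest mean, and the 2 genes most like each member. CSTB, CST3, CST6, CTSL, CNFN, ANXA1, TGM4, DSP and the marker genes KRT5, KRT14, KRT8, KRT18 and THY1 were named beside them after their values were seen.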

Additional observations from a re-analysis of the deposited data

How the results depend on the processing

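Of the cornified envelope genes, 2 or 3 were called under each of the 19 alternatives, and 2 to 3 on leaving out single samples. The count over all genes, 1076, became 707 with the length and GC correction and the replicate block, 2112 by DESeq2 and 1706 at an adjusted p under 0.1, and lay between 453 (without depleted replicate 2) and 2474 (without control replicate 3) when a sample was left out, with 634 without control replicate 1, 675 without control replicate 2 and 467 without depleted replicate 3. The count over the wider lists, 8, became 5 at a mean of at least 50, 17 by DESeq2 and 15 at an adjusted p under 0.1, and lay between 4 (without control replicate 2 or depleted replicate 3) and 16 (without control replicate 3), with 5 without depleted replicate 2. The log2 fold change of IVL turned to -0.12 with a pseudocount of 10, to -0.13 with quantile normalization and with the length and GC correction (with and without the block), to -0.85 by edgeR and to -0.88 by DESeq2, and lay between -0.96 and 1.25 when a sample was left out. That of PPL turned to -0.02 with the length and GC correction (with and without the block) and lay between -0.21 and 0.44 when a sample was left out. The cause was not tested. Same-numbered samples of the conditions had correlations of -0.0726, -0.283 and -0.323 of their deviations across genes, so they did not deviate in the same direction. Deviations from means of 3 samples constrain each other, so these values cannot settle whether the replicate numbers pair the samples. With the replicate block 967 genes, 2 cornified envelope genes and 9 genes of the wider lists were called. The sum of SPRR1A and SPRR1B was not run. Depth limits IVL and the depleted values of CSTA, TGM5 and PI3, which rest on few reads.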
